A study of Mus musculus with 6 samples.

Results

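The T lineage identity loci described here are 6 genes, Cd3e, Cd3d, Cd3g, Bcl11b, Gata3 and Notch1, in 4 windows of the mouse genome (build mm9). Membership was decided by position in a window, and no score or width entered it. Cd3e, Cd3d and Cd3g share chromosome 9, 44760000 to 44840000. Bcl11b has chromosome 12, 109130000 to 109270000, and 2 windows lie on chromosome 2, at 9750000 to 9830000 for Gata3 and 26300000 to 26380000 for Notch1. Every deposited peak that touched a window was a member, which gave 70 of the 74959 peaks of the series. Of these, 5 were SOX13 peaks, 29 and 21 were H3K4me3 peaks and 11 and 4 were H3K27me3 peaks, with Sox13hi before Sox13lo.

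The peaks come from chromatin immunoprecipitation with sequencing (ChIP-seq) of thymocytes from C57BL/6 mice. All libraries share the genotype TCRbeta KO.Sox13 ECFP KI/+: the mice lack TCRβ and carry a cyan fluorescent reporter at 1 Sox13 allele. γδ-positive, CD24-positive cells were sorted into CFPhi cells, called Sox13hi, and CFPlo or CFP-negative cells, called Sox13lo, so that the second group mixes low and negative cells. SOX13 was mapped in Sox13hi only, from 1000000 cells, and each histone mark in both populations, from 250000 cells per library. Each group is 1 library, so the populations are compared without replicates and without p-values. Nothing in the labels says how many mice a library holds.

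Cd3e, Cd3d and Cd3g encode the ε, δ and γ chains of CD3, a signalling part of T cell receptors. Notch1 encodes the receptor whose signal starts the T cell programme in the thymus. Gata3 and Bcl11b encode zinc finger transcription factors that act in that programme, Gata3 early and Bcl11b at commitment to the T lineage. SOX13 is an HMG-box transcription factor of γδ T cell precursors. H3K4me3 marks active and poised promoters, and H3K27me3 is the mark of Polycomb repression. A region with both is often called bivalent.

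The promoters of all 6 genes were found in a RefSeq table on build GRCm38.p6. Its positions cannot be set against the mm9 peaks, so no peak is placed on a promoter, an exon or an intron here. In that build's gene order Cd3g, Cd3d and Cd3e are consecutive protein-coding genes between Ube4a and Mpzl2, and Notch1 lies between Sec16a and Egfl7, so a window may also hold a neighbour's peaks. The promoter sequences are shown because 2 motifs were searched in them and because they differ in CpG content. On both strands of 300 bases (250 before and 50 after the start), the SOX core AACAAT was in 0 of the 6 promoters, against 10.7% of the 32851 promoters of the table. The TCF core CTTTGAA was in 1 of the 6, that of Bcl11b, against 5.14%. Only these exact letters were searched, so variants of either core were not counted. A match is a description of letters and no evidence of binding. The 250 bases before the start of Bcl11b (GRCm38.p6, chr12:108003415-108003664, minus strand) follow, with the TCF core in capitals.
Bcl11b: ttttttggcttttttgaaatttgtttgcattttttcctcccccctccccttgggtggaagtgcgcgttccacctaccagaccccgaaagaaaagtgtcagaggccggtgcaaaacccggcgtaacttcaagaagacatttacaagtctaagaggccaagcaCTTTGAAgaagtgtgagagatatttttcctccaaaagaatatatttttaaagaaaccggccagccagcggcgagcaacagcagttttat
The promoters of Notch1 and Gata3 hold 23 and 22 CpG dinucleotides in 300 bases, more than 78.5% and 76.9% of the table's promoters. That of Cd3d holds 1 and that of Cd3g 4, while Cd3e with 8 and Bcl11b with 9 lie near the table's median of 7. The Notch1 (chr2:26503823-26504072, minus strand) and Cd3d (chr9:44981536-44981785, plus strand) stretches are shown with each CpG in capitals. The only CpG of Cd3d lies in the 50 bases after the start, which are not printed.
Notch1: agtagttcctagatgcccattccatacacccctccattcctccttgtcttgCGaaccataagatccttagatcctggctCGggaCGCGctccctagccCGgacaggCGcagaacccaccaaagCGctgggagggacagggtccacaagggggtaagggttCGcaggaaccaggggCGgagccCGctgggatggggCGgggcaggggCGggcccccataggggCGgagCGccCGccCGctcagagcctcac
Cd3d: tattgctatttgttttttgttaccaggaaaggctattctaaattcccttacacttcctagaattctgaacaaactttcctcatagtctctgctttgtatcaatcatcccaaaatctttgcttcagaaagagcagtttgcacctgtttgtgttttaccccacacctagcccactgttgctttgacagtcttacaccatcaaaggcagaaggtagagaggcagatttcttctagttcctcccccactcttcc

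All 4 windows carried H3K4me3 in both populations. H3K27me3 in both populations was found at Gata3 alone of the 4, and SOX13 peaks lay at Bcl11b (4 peaks) and Notch1 (1 peak), with 0 at Gata3 and 0 in the Cd3 window. H3K4me3 peaks covered 7.11% of the windows in Sox13hi and 5.54% in Sox13lo, against 0.686% and 0.634% of the sequence spanned by the whole lists. Windows around other genes were not analysed here, so this excess is over the genome as a whole and not over other genes. H3K27me3 covered 0.961% and 0.526% of the windows, against 0.200% and 0.125% for the lists. SOX13 peaks had a density of 13.2 per Mb in the windows and 5.35 per Mb over the list. A list holds called peaks only, so a window without a peak is not shown to lack the protein or the mark. The depth of each library is unknown.

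**Figure D1:**
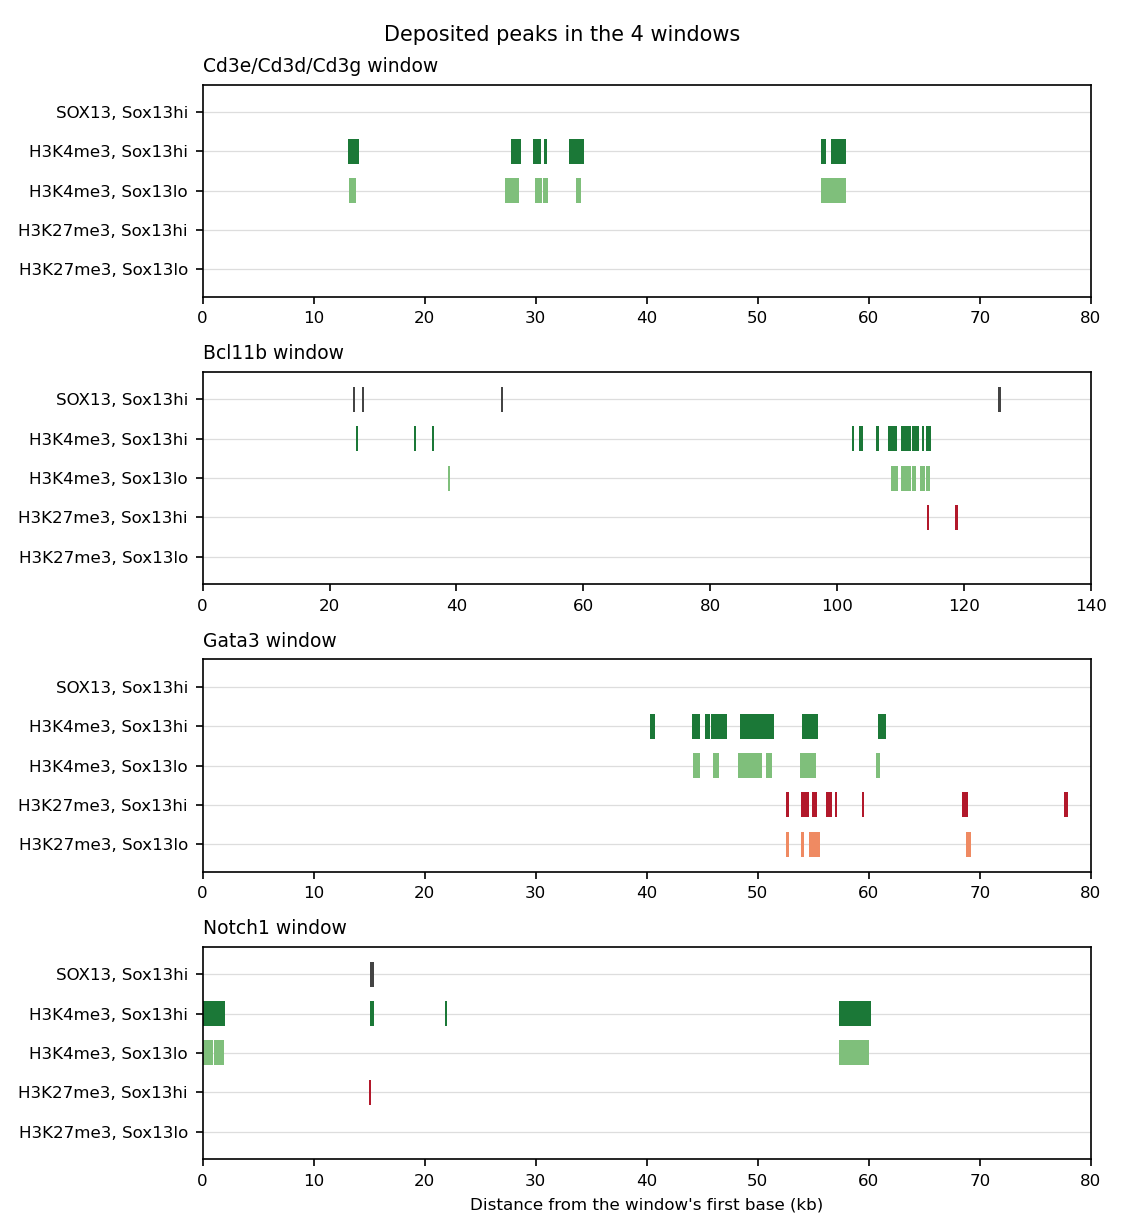
Peaks of the 5 libraries in each window, with the distance from the window's first base in kb on the x axis and 1 row per library. Boxes are peaks, with very narrow ones widened to stay visible. H3K4me3 is present in every window and H3K27me3 gathers at Gata3. The 4 SOX13 peaks of Bcl11b overlap no H3K4me3 peak, and lie 200, 700, 10650 and 10500 bp from the nearest one in Sox13hi.

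The scores are the authors' own and are used only to rank peaks within a list, with rank 1 for the highest score. A rank in Sox13hi is out of 20444 H3K4me3 or 14842 H3K27me3 peaks, a rank in Sox13lo out of 18471 or 7395, and a SOX13 rank out of 13807. Ranks from lists of different length are set side by side as a description and show no change.

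The Cd3 window held H3K4me3 alone. Sox13hi had 7 peaks covering 6200 bp and Sox13lo 6 covering 5800 bp, and every one of the 13 overlapped a peak of the other population. The 13 count both sides of the same overlaps. Over the whole lists 69.7% of the Sox13hi and 78.1% of the Sox13lo H3K4me3 peaks overlapped the other list. H3K27me3 peaks numbered 0 in both lists, and the nearest lay 106500 bp outside the window in Sox13hi and 9250 bp outside it in Sox13lo. The nearest SOX13 peak lay 40301 bp outside.

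With peaks up to 2 kb apart joined, the H3K4me3 peaks of the Cd3 window formed 3 groups in Sox13hi and 4 in Sox13lo. The highest-scoring Sox13hi peak, 44816551 to 44817949, was 1400 bp wide with rank 8008. A smaller peak stood 400 bp before it, 44815701 to 44816149, with rank 16815. In Sox13lo a single peak of 2250 bp, 44815651 to 44817899, lay over both, with rank 5522. This last group of the window therefore spanned 2250 bp in each population and was called as 2 peaks in Sox13hi and 1 in Sox13lo.

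The group before it held 4 peaks in Sox13hi, from 44787751 to 44794349. In Sox13lo 3 peaks formed a group from 44787251 to 44791099, and another peak, 44793601 to 44794099, stood 2500 bp away. The highest-scoring peak of the group was 44787751 to 44788649 in Sox13hi (rank 9268) and 44787251 to 44788499 in Sox13lo (rank 8388). That lone Sox13lo peak was 500 bp wide and matched the last Sox13hi peak of the group, 44792951 to 44794349, of 1400 bp. The first group was a single peak in each list, 44773101 to 44774099 (rank 8695) and 44773151 to 44773849 (rank 8719). Of the bases under H3K4me3, 4650 were covered in both populations, which is 75.0% of the Sox13hi and 80.2% of the Sox13lo sequence, close to the 77.7% and 84.1% of the whole lists. No Cd3 peak of either list reached the highest-scoring 10%.

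Notch1 held the highest-ranked H3K4me3 peak of the 4 windows in both populations. It was 2800 bp wide in Sox13hi, 26357351 to 26360149, with rank 1022, and 2750 bp wide in Sox13lo, 26357301 to 26360049, with rank 470. Its edges differed by 50 bp at the start and 100 bp at the end. Peaks of over 2000 bp make up 3.32% of the Sox13hi and 3.50% of the Sox13lo list. The other broad H3K4me3 site lay at the window's first bases, and the gene it belongs to was not analysed here. It was a single Sox13hi peak of 1950 bp, 26300051 to 26301999 (rank 1850), and 2 Sox13lo peaks 150 bp apart, 26300051 to 26300899 (rank 4940) and 26301051 to 26301949 (rank 8690). In this window 98.9% of the Sox13lo H3K4me3 sequence was also covered in Sox13hi, against 84.1% of the whole list. Seen from Sox13hi it was 84.0%, against 77.7%.

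Between these broad sites lay a place called in all 3 Sox13hi libraries and in neither Sox13lo library. The SOX13 peak was 26315051 to 26315449, 400 bp wide, with a score of 10.25 and rank 3012. The H3K4me3 peak began at the same base, 26315051 to 26315399, and ranked 16965. The H3K27me3 peak, 26315001 to 26315149, was 150 bp wide and ranked 11580. Both histone peaks were thus low in their lists, while the SOX13 peak was in the highest 21.8% of its list. The nearest Sox13lo peak was 13100 bp away for H3K4me3 and 252350 bp away for H3K27me3. Over the series, 18 of the 13807 SOX13 peaks (0.13%) overlapped both marks in Sox13hi and neither in Sox13lo. Enrichment in the input library was not analysed here. One more H3K4me3 peak was found in Sox13hi only, 26321801 to 26321999, 200 bp wide with a score of 6.0 and rank 19446.

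Gata3 was the window with both histone marks in both populations. Sox13hi had 7 H3K4me3 peaks covering 8050 bp, the most of the 4 windows, and 8 H3K27me3 peaks covering 3200 bp. Sox13lo had 6 H3K4me3 peaks covering 5550 bp and 4 H3K27me3 peaks covering 2000 bp. There were 0 SOX13 peaks, and the nearest lay 27301 bp outside the window.

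The 2 marks at Gata3 lay side by side for most of their length. H3K4me3 peaks alone lay in the stretch from 9794101 to 9801449 in Sox13hi and from 9794151 to 9801249 in Sox13lo, with 4 peaks in each. They covered 5600 of 7350 bp (76.2%) in Sox13hi and 3800 of 7100 bp (53.5%) in Sox13lo, with gaps between them. Its main peak was 3100 bp wide in Sox13hi, 9798351 to 9801449, the widest H3K4me3 peak of the 4 windows, with rank 1482. Sox13lo had 2 peaks there, 9798251 to 9800399 of 2150 bp with rank 3597 and 9800751 to 9801249 of 500 bp with rank 13923. The next Sox13hi peak, 9795801 to 9797199 (1400 bp, rank 5418), matched a Sox13lo peak of 550 bp at 9795951 to 9796499 (rank 13382). At the start of the stretch a Sox13lo peak, 9794151 to 9794749 (600 bp, rank 12858), lay within 9794101 to 9794749 in Sox13hi (650 bp, rank 12096). This stretch held no H3K27me3 peak in either population.

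Both marks met at 1 H3K4me3 peak of Gata3, 9804001 to 9805399 in Sox13hi (rank 9379) and 9803801 to 9805199 in Sox13lo (rank 10200), 1400 bp wide in each. In Sox13hi it overlapped the H3K27me3 peaks 9803901 to 9804599 (700 bp, rank 1891) and 9804901 to 9805299 (400 bp, rank 5323). In Sox13lo it overlapped 9803901 to 9804199 (300 bp, rank 4379) and 9804651 to 9805599 (950 bp, rank 2269). The first of each pair began at the same base, and the wider peak of the pair was the first in Sox13hi and the second in Sox13lo. Bases under both marks numbered 1000 in Sox13hi and 850 in Sox13lo. This is 31.2% and 42.5% of the H3K27me3 sequence of the window, against 29.5% and 40.2% over the whole lists.

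The other H3K27me3 peaks of Gata3 were free of H3K4me3. One was identical in both lists, 9802501 to 9802799, with rank 7313 in Sox13hi and 4920 in Sox13lo. Another was 9818401 to 9818949 in Sox13hi (rank 2485) and 9818751 to 9819199 in Sox13lo (rank 3048), sharing 200 bp. Sox13hi alone had 9806151 to 9806649 (rank 3553), 9806951 to 9807149 (rank 6041), 9809351 to 9809549 (rank 8274) and 9827601 to 9827949 (rank 5872). The first of these was the highest-scoring H3K27me3 peak of the windows found in 1 population only, and it stood 550 bp from a Sox13lo peak. The 4 Sox13hi-only peaks make up the whole difference in number. The Sox13hi list is 2.01 times as long as the Sox13lo list, close to the ratio of 8 to 4 peaks here. At equal list length 7 and 4 of these peaks were left, so a difference in number remained there. Its cause was not tested.

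The H3K4me3 peaks of Gata3 found in Sox13hi only were 9790301 to 9790699 (rank 16618) and 9795201 to 9795649 (rank 17157). The second stood 300 bp from a Sox13lo peak. A last pair at 9810851 to 9811499 in Sox13hi (rank 12560) and 9810651 to 9810999 in Sox13lo (rank 15303) shared 150 bp. Sequence covered by H3K4me3 in Sox13hi was 1.45 times that in Sox13lo, with 3000 bp in Sox13hi alone, 500 bp in Sox13lo alone and 5050 bp in both. The shared part was 62.7% of the Sox13hi and 91.0% of the Sox13lo sequence, against 77.7% and 84.1% of the whole lists.

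Bcl11b had the most H3K4me3 peaks in Sox13hi, 11 against 6 in Sox13lo, in a window of 140 kb against 80 kb for the others. They covered 7450 and 5200 bp. The main cluster held 6 peaks over 8.65 kb in Sox13hi, 109236151 to 109244799, and 5 peaks over 6.20 kb in Sox13lo, 109238501 to 109244699, when peaks up to 2 kb apart are joined. Its highest-scoring peak, 109240101 to 109241699, had the same first and last base in both lists, with rank 4657 in Sox13hi and 5973 in Sox13lo. The next was 109241801 to 109242949 in Sox13hi (1150 bp, rank 7476), over a Sox13lo peak of 600 bp, 109241801 to 109242399 (rank 11733). The third was 109237951 to 109239449 in Sox13hi (1500 bp, rank 8535), over 109238501 to 109239649 in Sox13lo (1150 bp, rank 10398). In Sox13lo the peak at the far edge, 109244051 to 109244699 (650 bp, rank 10446), scored close to that one and matched 109244051 to 109244799 in Sox13hi (750 bp, rank 10331). The far edge of the cluster thus differed by 100 bp between the populations and the near edge, under this joining rule, by more than 2 kb. That near edge rests on 1 low-scoring peak found in Sox13hi only, 109236151 to 109236649 (rank 14849), which stood 1300 bp from its neighbour. Without that peak the cluster began at 109237951 in Sox13hi and 109238501 in Sox13lo.

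**Figure D2:**
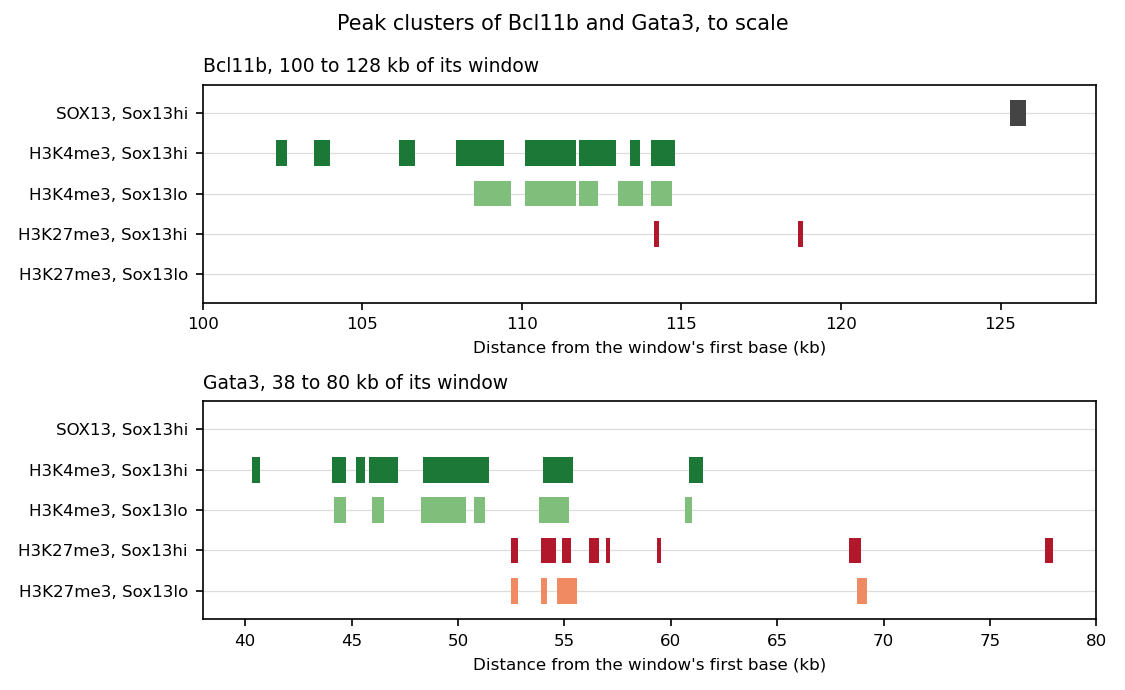
The clusters of Bcl11b and Gata3 drawn to scale, with the distance from the window's first base in kb on the x axis and 1 row per library. At Bcl11b the Sox13hi H3K4me3 peaks reach further to the left than the Sox13lo peaks, and at Gata3 the H3K27me3 peaks begin beside the main H3K4me3 peak and lie on 1 further H3K4me3 peak in both populations.

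On the near side of the Bcl11b cluster, 3 H3K4me3 peaks were found in Sox13hi only: 109232301 to 109232649 (score 13.0), 109233501 to 109233999 (11.25) and 109236151 to 109236649 (13.5). They stood 5850, 4500 and 1850 bp from the nearest Sox13lo peak. A further 3 Sox13hi-only peaks lay far from the cluster, 109154101 to 109154349 (score 7.5), 109163351 to 109163699 (9.75) and 109166151 to 109166349 (6.0). The only H3K4me3 peak of the 4 windows found in Sox13lo alone was at Bcl11b too, 109168651 to 109169049, 400 bp wide with a score of 16.5 and rank 14490. All 7 were low in their lists, from rank 14849 downwards in Sox13hi. Of the Bcl11b sequence under H3K4me3 in Sox13hi, 55.0% was also covered in Sox13lo, the lowest share of the windows, against 77.7% of the whole list. Seen from Sox13lo it was 78.8%, against 84.1%.

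H3K27me3 at Bcl11b was limited to 2 Sox13hi peaks of 150 bp, 109244151 to 109244299 (score 7.75, rank 11407) and 109248651 to 109248799 (score 8.5, rank 10850). The first lay on the edge peak of the H3K4me3 cluster. In Sox13lo the nearest H3K27me3 peak was 242450 bp outside the window. Both Sox13hi peaks were in the lowest-scoring 50% of a list that is longer than the Sox13lo list, and at equal list length 0 of them were left.

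The 4 SOX13 peaks of Bcl11b gave 28.6 peaks per Mb, against 5.07 per Mb on chromosome 12. The highest-scoring was 109177001 to 109177349, 350 bp wide, with a score of 16.75 and rank 845. The second was 109255301 to 109255799, 500 bp wide, with a score of 13.25 and rank 1542, and was among the widest 4.29% of SOX13 peaks. The other 2 formed a pair 1150 bp apart, 109153651 to 109153899 (score 8.25, rank 5299) and 109155051 to 109155299 (score 9.0, rank 4164). Of all SOX13 peaks 4.27% had another within that distance. With the Notch1 peak, all 5 were in the highest-scoring 50% of the list.

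None of the 4 Bcl11b SOX13 peaks overlapped a histone peak of any list, as was the case for 81.9% of the SOX13 list. The pair lay on either side of a small Sox13hi-only H3K4me3 peak, 109154101 to 109154349, at 200 and 700 bp. The peak at 109177001 stood 10650 bp from the nearest Sox13hi H3K4me3 peak, and that at 109255301 stood 10500 bp beyond the H3K4me3 cluster. The median SOX13 peak of the list was 24.8 kb from Sox13hi H3K4me3. From H3K27me3 in Sox13hi the peak at 109255301 was 6500 bp away, against a list median of 62.3 kb. The other Bcl11b SOX13 peaks were farther than that median, at 66.8, 88.8 and 90.2 kb. At equal list length 0 H3K27me3 peaks of Sox13hi were left in the Bcl11b window. Over the 4 windows 1 of 5 SOX13 peaks overlapped H3K4me3 in Sox13hi and 1 of 5 H3K27me3, in both cases that of Notch1. This is 20% (95% exact binomial interval 0.505 to 71.6%) against 14.2% and 3.7% of the list, and 5 peaks are too few to tell these apart.

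**Figure D3:**
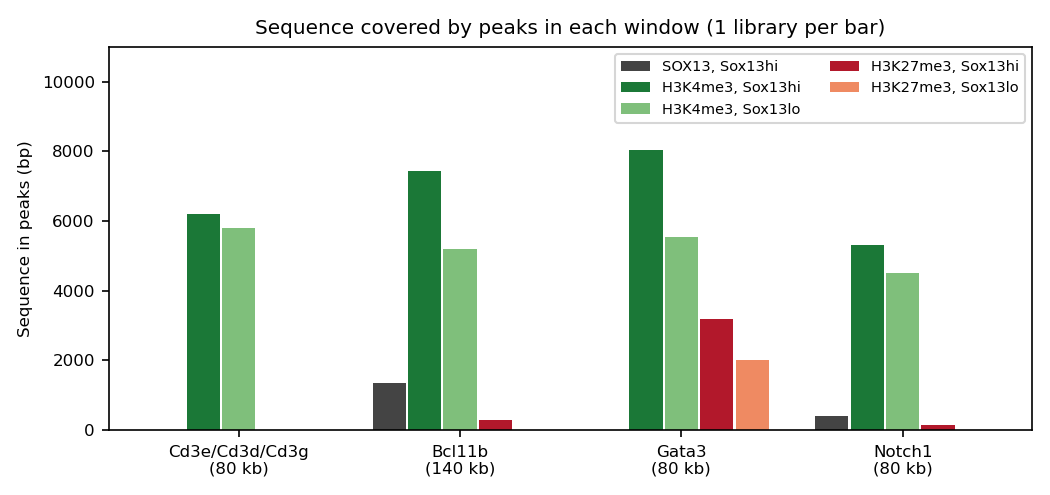
Sequence in peaks (bp, y axis) for each window and library, with 1 library per bar and no error bars. Sox13hi exceeds Sox13lo for H3K4me3 in all 4 windows, from 6200 against 5800 bp in the Cd3 window to 8050 against 5550 bp at Gata3, and the Sox13hi lists are also longer. At equal list length (not drawn) H3K4me3 covered 6200 against 5800 bp in the Cd3 window and 7000 against 5200 bp at Bcl11b. It covered 8050 against 5550 bp at Gata3 and 5100 against 4500 bp at Notch1. The cause of the difference was not tested.

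Peaks of all 4 windows were then counted to ask how far the marks differed between the populations. Of the 29 Sox13hi H3K4me3 peaks, 19 overlapped a Sox13lo peak (65.5%, 95% exact binomial interval 45.7 to 82.1%), against 69.7% of the list. The 10 found in Sox13hi only, 6 of them at Bcl11b, 2 at Gata3 and 2 at Notch1, compare with 30.3% of the list, so their number was near the background. Of the 21 Sox13lo peaks 20 were matched (95.2%, 76.2 to 99.9%), against 78.1% of the list, and 1 was not, where 21.9% of the list were not. These intervals cover counting error only and treat peaks as independent, although peaks of a window are neighbours.

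Unmatched H3K4me3 peaks were low in score and narrow. The 10 in Sox13hi had scores from 6.0 to 13.5 and a median width of 350 bp, against 1150 bp for the matched peaks. In the whole Sox13hi list 84.6% of peaks with a score of 13.5 or less were unmatched, and in the windows 10 of 13. That limit is the highest score of the 10 unmatched members, so all 10 fall under it by construction. All 12 Sox13hi and all 8 Sox13lo members in the higher-scoring 50% of their list overlapped a peak of the other population's full list, where the lists have 99.3% and 99.8%. When the other list was also limited to its higher-scoring 50%, 7 of the 12 Sox13hi members (58.3%) and all 8 Sox13lo members were matched. The share of the whole lists at that setting is not given here, so these shares are not shown to be particular to the windows. Members ran from rank 1022 to 19446 in Sox13hi and from rank 470 to 15303 in Sox13lo. Their median width was 650 and 700 bp, against 800 bp in both lists.

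**Figure D4:**
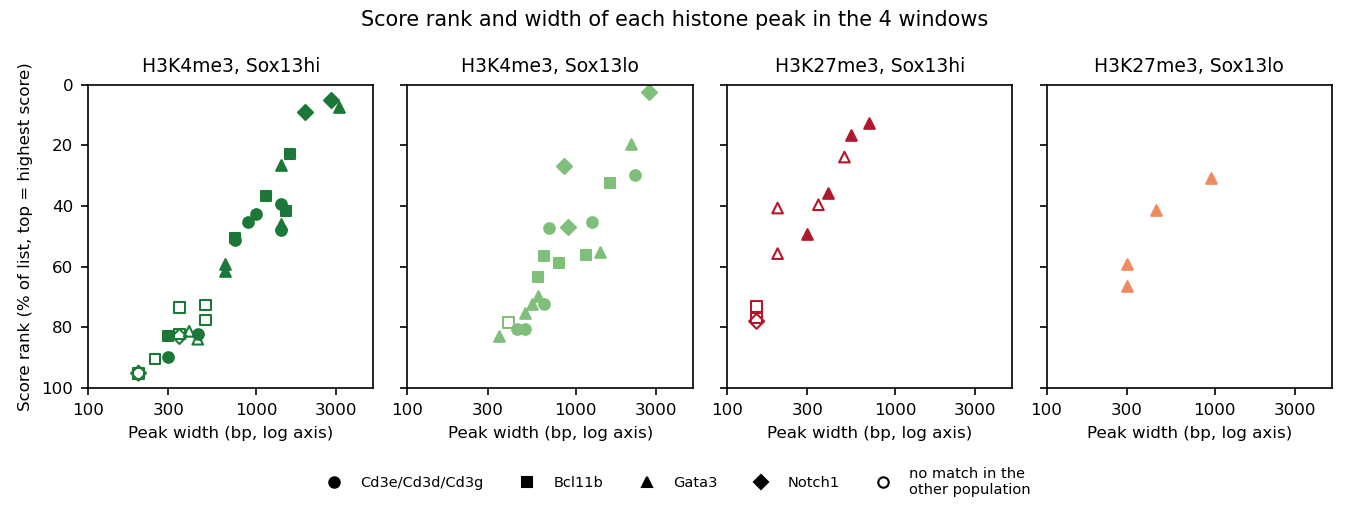
Each histone peak of the windows by its width (bp, log axis, x) and its score rank as a percentage of its list (y, highest scores at the top), with a panel per library, a symbol per window and open symbols for peaks with no match in the other population. The open H3K4me3 symbols are narrow and low. The 5 H3K4me3 peaks of over 2000 bp, 2 at Notch1, 2 at Gata3 and 1 in the Cd3 window, lie between 2.54% and 29.9% of their lists.

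For H3K27me3, 4 of the 11 Sox13hi peaks were matched (36.4%, 10.9 to 69.2%), against 24.5% of the list. At equal list length 4 of 7 (57.1%) were matched, and the share of the whole list at that length is not given here. All 4 Sox13lo peaks were matched (100%, 39.8 to 100%), against 49.1% of the list, and 0 were not, where 50.9% of the list were not. All 8 matched peaks were at Gata3. The 7 unmatched Sox13hi peaks, 4 at Gata3, 2 at Bcl11b and 1 at Notch1, compare with 75.5% of the list. Their widths were 150 to 500 bp. H3K4me3 peaks that carried H3K27me3 in the same population numbered 3 of 29 in Sox13hi, 1 each at Gata3, Bcl11b and Notch1, and 1 of 21 in Sox13lo, at Gata3. The lists have 14.4% and 14.2%. Seen from H3K27me3, 4 of 11 peaks in Sox13hi and 2 of 4 in Sox13lo lay on H3K4me3, against 22.1% and 38.6% of the lists. SOX13 was on 1 of the 11 Sox13hi H3K27me3 peaks, against 3.27% of the list. Of the 29 Sox13hi H3K4me3 peaks 1 held SOX13 (3.45%, 0.0873 to 17.8%), against 9.29% of the list. With the lists as deposited, the 95% exact binomial interval of each share in this paragraph included the share of its list.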

How the data were processed

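SOX13 was mapped in Sox13hi and H3K4me3 and H3K27me3 in both populations. Per the labels, chromatin was fixed with 1% formaldehyde and sonicated, libraries were amplified for 17 cycles, and fragments of 300 to 500 bp were taken. The authors deposited 1 peak list per library, with a position and a score per peak, on build mm9 per the submitters' processing notes. The deposited score is positive and near a multiple of 0.25. The sources used here define no score and name no aligner, caller, threshold or control. Read depth is unknown. The input library was not analysed here.

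Peaks lie on a 50 bp grid with ends 1 bp short of it. Starts are printed counting from 1, ends as deposited, and widths include the last grid base. Ranks order scores within a list, ties taking the better rank. Peaks matched if they overlapped by at least 1 bp. Densities use the 380 kb of windows and, for the lists, the sequence from each chromosome's first to its last peak, 2580 Mb in all. Shares carry exact (Clopper-Pearson) intervals, for counting error only. The overlap code was tested on simulated data and gave the counts of bedtools 2.31.1. Alternatives were 50% of the shorter peak as the overlap, only the higher-scoring 50% of every list, equal list length, peaks within 1 kb merged, and windows widened by 20 kb. The members and lists were chosen with earlier results of these data known. Positions are printed for all SOX13 and H3K27me3 peaks, all peaks of 1 population, and the 3 highest-scoring H3K4me3 peaks of each window and population with their matches. A few further peaks were named after their values were seen. Promoters came from RefSeq (GRCm38.p6), and their CpG counts and the 20 kb flanks were added after seeing the data. Python 3.11.15, pandas 2.3.3, SciPy 1.17.1 and matplotlib 3.10.9 were used.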

Additional observations from a re-analysis of the deposited data

How the results depend on the processing

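The 17 results over the 4 windows (matched shares, shares with SOX13, numbers of peaks and covered sequence) were recomputed under 4 alternatives, and the 7 shares also with an overlap of 50% of the shorter peak. Shares of the whole lists under these alternatives are not given here. That overlap moved none of the 7 shares beyond its interval, and merging peaks within 1 kb moved no share beyond its interval and no number or covered length by over 1.5 times. With the higher-scoring 50% of every list, the peaks numbered 12 and 8 for H3K4me3 and 7 and 2 for H3K27me3, Sox13hi first, the Sox13lo H3K4me3 peaks covered 12450 bp, and 100% of them were matched, while 58.3% of the Sox13hi H3K4me3 peaks were, against 65.5% as deposited. There the share of SOX13 peaks on H3K4me3, that on H3K27me3 and the share of H3K4me3 peaks with SOX13 were each 0%, because the histone peaks of the Notch1 site are in the lower-scoring part of their lists. At equal list length 7 Sox13hi H3K27me3 peaks were left, all at Gata3, with 57.1% of them matched against 36.4% as deposited, and 0% of SOX13 peaks overlapped H3K27me3. Windows widened by 20 kb held 2650 bp of SOX13 peaks, against 1750 bp. Of 160 recomputed values for a single window and library, 26 moved by over 1.5 times and 134 did not; among them the Bcl11b H3K4me3 peaks became 6 and 2 with peaks within 1 kb merged. No paired analysis was possible because a group is a single library, which also leaves no replicate to leave out. Read depth, the caller's threshold and the input were not at hand, so how they bear on the number of peaks was not tested.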

Other observations

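Beside the Notch1 window, within 20 kb of its end, lay 2 SOX13 peaks that scored higher than any SOX13 peak inside the 4 windows. These peaks were chosen after their values were seen. The first, chromosome 2, 26384251 to 26384699, was 450 bp wide with a score of 32.75 and rank 175 of the SOX13 list. A Sox13lo H3K4me3 peak had the same first and last base, with rank 11407, while the nearest Sox13hi H3K4me3 peak was 24100 bp away. The SOX13 site mapped in Sox13hi cells thus had an H3K4me3 call in Sox13lo alone. A missing call does not show that Sox13hi lacks the mark, and how common this pattern is among SOX13 peaks is not given here. The second SOX13 peak, 26387901 to 26388349, was also 450 bp wide and ranked 473, with no histone peak on it.

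Beside the Cd3 window, 9250 bp past its end, lay a Sox13lo H3K27me3 peak at chromosome 9, 44849251 to 44849449, 200 bp wide with a score of 9.75 and rank 5885. It had no Sox13hi H3K27me3 peak within 97050 bp and stood 900 bp from a Sox13lo H3K4me3 peak, 44850351 to 44851149, which overlapped a Sox13hi peak at 44850401 to 44851049.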
